A study of Mus musculus with 8 samples.

Results

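The hyaluronan and versican matrix of the endocardial cushions was followed through 10 genes in hearts of mouse embryos at embryonic day 9.5. RNA was from hearts and not from cushions alone, so the values do not place these transcripts in the cushions. The genes were chosen by name, with earlier results of these data known. Each symbol was looked up in the GENCODE M21 annotation through the Ensembl identifier of the deposited table of normalized counts. All 10 were found among the 13637 genes in the table. RNA-seq had been done on 4 samples labelled Bmp2GOF;Nkx2.5-Cre (GOF below), which combine a gain-of-function allele of Bmp2 with Nkx2.5-Cre, and on 4 wild-type (WT) samples. Nkx2.5-Cre recombines in cardiac progenitors and their descendants. The labels do not say how the allele was built, how many embryos went into a sample, or whether the WT embryos carried the Cre. The limma p-values set the difference between the groups only against the spread among samples within the groups, which may be technical.

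The cushions are swellings of extracellular matrix between myocardium and endocardium in the atrioventricular canal and outflow tract, and they are populated by mesenchyme that leaves the endocardium. Their bulk is hyaluronan, a sugar polymer spun out at the cell surface by a hyaluronan synthase, to which the chondroitin sulfate proteoglycan versican is bound through a link protein. Hyaluronidases cut the polymer and proteases of the ADAMTS family cut versican, so the amount of matrix depends on making as well as on clearing it. In the mouse, Has2 and Vcan are both needed for cushions to form.

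The genotype labels were checked on Bmp2, the secreted BMP ligand. It stood at 95.8, 102, 108 and 91.1 normalized reads in GOF samples 1 to 4 and at 61.7, 59.6, 54.4 and 49.5 in WT samples 1 to 4, with no overlap between the groups. Permuting the group labels over all 70 possible splits (exact permutation test, two-sided) gave p = 0.0286, the smallest that 4 against 4 can give. Any gene without overlap gives this value, and for 25.6% of all genes every GOF sample was above every WT sample. The heart muscle markers Tnnt2, Myh6, Myl7, Actc1 and Nkx2-5 summed to between 18604 and 21759 normalized reads in GOF and between 19790 and 22329 in WT. Singly they did not move together. Myl7 (log2 change 0.33, limma adjusted p = 0.000201) and Nkx2-5 (0.35, limma adjusted p = 0.000421) rose, and their groups did not overlap. Myh6 fell (-0.16, limma adjusted p = 0.0487), but its groups overlapped. Its call did not survive the removal of GOF sample 1, GOF sample 3 or any WT sample except WT sample 2. Nor did it hold with a pseudocount of 5, with the replicate number as a block, or in limma without trend and robust prior. Tnnt2 (-0.11) and Actc1 (0.01) overlapped too and were not called (limma adjusted p = 0.0971 and 0.937). The reads implied by the values, summed over the genes in the table, were 13182009 to 17927674 per sample in GOF and 12287069 to 16697480 in WT. GOF sample 1 held the highest red cell marker sum (11596 normalized reads, against 2065 to 7159 in the other GOF samples and 2060 to 5864 in WT).

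Of the 10 genes, 6 rose in GOF, 2 fell and 2 did not pass the threshold, which was 0.05 on the limma p-value after Benjamini-Hochberg adjustment across the whole table. Genes that make the matrix and genes that cut it did not move as blocks. Among the 4 synthesis genes, Has2, Ugdh and Vcan rose and the link protein gene Hapln1 did not pass. Among the 4 cleavage genes, Hyal2 and Adamts5 fell, Adamts9 rose and Adamts1 did not pass. The receptor gene Cd44 and the matricellular gene Postn rose. These counts stand against a broad difference between the groups, in which 56.3% of all genes passed the threshold, 28.2% as higher and 28.2% as lower in GOF. For 6 of the 10 genes every GOF sample was higher than every WT sample and for 2 every GOF sample was lower, 8 genes without overlap in all. Over all genes the shares were 25.6% higher, 25.3% lower and 50.9% in all. The median log2 change was 0.55 over the synthesis genes, -0.33 over the cleavage genes and 0.00 over all genes (-0.00198). The 5th and the 95th percentile of all genes were -0.56 and 0.84. Because the 10 genes were chosen with earlier results of these data known, their difference from all genes is a description and was not tested.

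**Figure D1:**
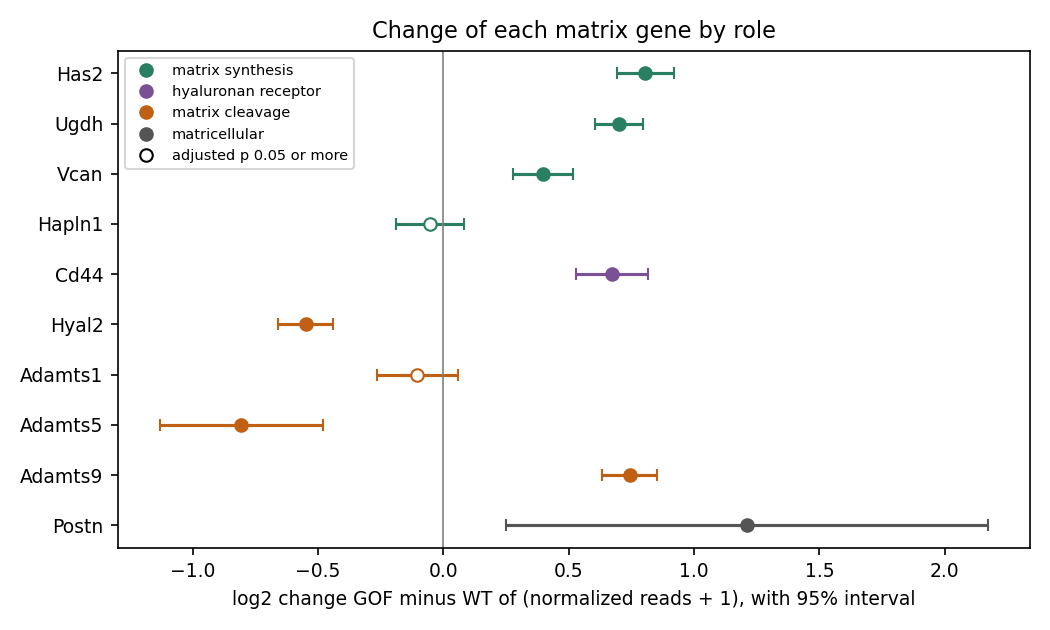
Log2 change from WT to GOF of each of the 10 genes on the log2(normalized reads + 1) scale, with 95% intervals from limma, coloured by role; open circles did not pass the threshold. Has2, Ugdh, Vcan, Cd44, Adamts9 and Postn lie above 0, Hyal2 and Adamts5 below 0, and the intervals of Hapln1 and Adamts1 include 0.

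Levels of different genes can be set against each other only per length, and they are given here as normalized reads per kilobase of merged exon. Vcan led in both groups, at 81.4 ± 1.83 in WT and 108 ± 9.84 in GOF (SD, n = 4). Hapln1 followed at 59.8 ± 3.20 and 57.7 ± 5.47. In WT the next were Hyal2 (19.0 ± 1.12) and Ugdh (17.1 ± 0.439), whose samples overlapped, and then Adamts1 (13.4 ± 0.505) and Has2 (13.2 ± 0.603), whose samples overlapped too. In GOF the next in order were Ugdh (27.9 ± 1.48) and Has2 (23.3 ± 1.53), which did not overlap. Hyal2 was sixth in GOF at 12.9 ± 0.344, and its samples overlapped with those of Cd44 (13.5 ± 1.004) and Adamts1 (12.6 ± 1.58). Adamts5 was last in both groups, at 0.616 ± 0.0578 in WT and 0.321 ± 0.102 in GOF. Merged exon length counts bases that a given isoform may leave out, and versican in particular is made as splice forms with and without its large chondroitin sulfate exons.

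**Figure D2:**
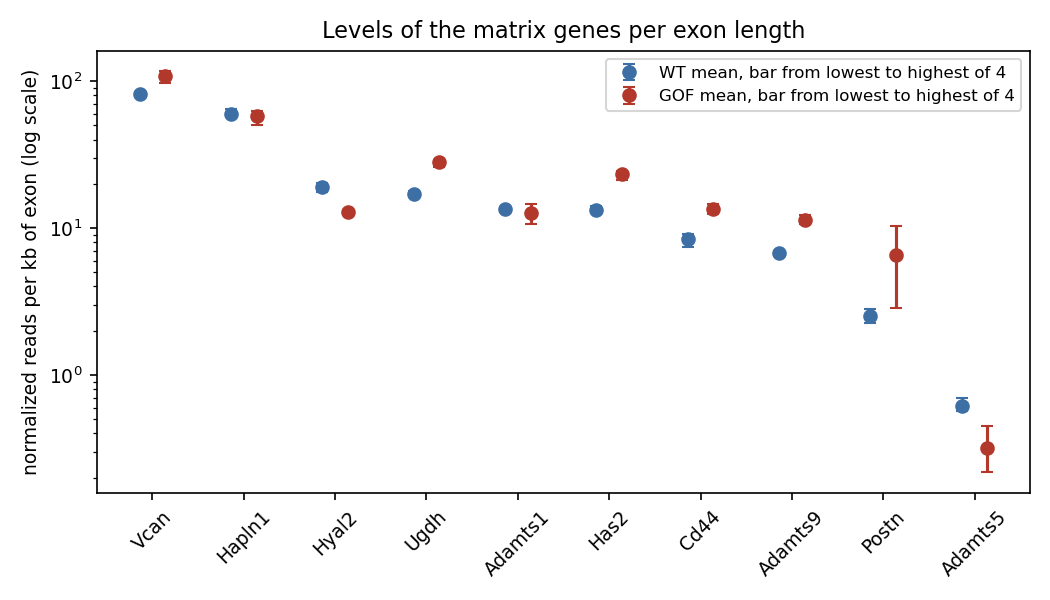
Mean normalized reads per kilobase of merged exon (log axis) for the 10 genes in WT and GOF, ordered by the WT mean; bars run from the lowest to the highest of 4 samples. Vcan and Hapln1 lead in both groups, Has2 and Ugdh stand above Hyal2 in GOF, and Adamts5 is lowest in both.

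Has2 (ENSMUSG00000022367, protein-coding, minus strand of chromosome 15, 56665627 to 56694539, GRCm38) encodes the main hyaluronan synthase of the embryonic heart. It was at 59.6, 53.7, 55.1 and 55.9 normalized reads in WT samples 1 to 4 and at 89.4, 100.02, 103 and 103 in GOF samples 1 to 4. All GOF samples lay above all WT samples, and GOF sample 1 was the lowest of its group. The log2 change was 0.81 ± 0.05 (SE, limma adjusted p = 6.79e-09), with a 95% interval of 0.69 to 0.92. Has2 shares 182 exon bases with Has2os, an RNA annotated on the opposite strand, and the sources used here do not say whether counting used strand, so reads from these bases cannot be assigned to either gene with certainty. The other hyaluronan synthase genes, Has1 and Has3, are not among the rows analysed here.

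Ugdh (ENSMUSG00000029201, minus strand of chromosome 5, 65413221 to 65435949) encodes UDP-glucose dehydrogenase, which makes the UDP-glucuronic acid that goes into hyaluronan and into chondroitin sulfate. It stood at 119.8, 114, 114 and 114 normalized reads in WT samples 1 to 4 and at 175, 188, 197 and 195 in GOF samples 1 to 4. The WT samples were nearly level, and every GOF sample was higher. Its log2 change of 0.70 ± 0.05 (SE, limma adjusted p = 4.4e-09) was close in size to that of Has2. The difference between the genes was not tested. Ugdh shares 158 exon bases with Gm43552, annotated on the same strand, and reads from these bases cannot be assigned with certainty.

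Vcan (ENSMUSG00000021614, minus strand of chromosome 13, 89655312 to 89742509) encodes versican. It was at 1215, 1162, 1175 and 1157 normalized reads in WT samples 1 to 4 and at 1393, 1697, 1649.8 and 1482 in GOF samples 1 to 4. The groups did not overlap, and the spread within GOF was wider, with a standard deviation of 142 against 26.4 in WT. This was a log2 change of 0.40 ± 0.06 (SE, limma adjusted p = 2.48e-05), larger in absolute size than that of 73.5% of all genes. The 250 bases upstream of its RefSeq start are shown because versican is the main protein substrate of the proteases described below. Here and in the sequences that follow, capitals mark any match on either strand to ACGTG or GCGTG, the core bound by hypoxia-inducible factors, to GGCGCC, a GC-rich element bound by the Smads of the BMP pathway, or to GTGGGAA, a core bound by the Notch effector RBPJ. The Vcan window (chr13:89742513-89742762, minus strand, GRCm38.p6, RefSeq) holds GTGGGAA, found in 5.42% of 32851 such windows, beginning 188 bases before the start.
Vcan: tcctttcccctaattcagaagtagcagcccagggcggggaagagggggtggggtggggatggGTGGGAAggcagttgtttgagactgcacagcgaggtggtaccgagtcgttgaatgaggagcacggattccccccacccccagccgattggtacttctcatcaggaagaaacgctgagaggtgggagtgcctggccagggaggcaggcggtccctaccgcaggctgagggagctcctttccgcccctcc

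Hapln1 (ENSMUSG00000021613, plus strand of chromosome 13, 89539796 to 89611652) encodes the link protein that locks versican onto hyaluronan. It lies next to Vcan, 43659 bases away, with no other protein-coding gene between them. It was at 352, 379.8, 345 and 336 normalized reads in WT samples 1 to 4 and at 297, 366, 364 and 335 in GOF samples 1 to 4. The groups overlapped. The log2 change was -0.05, with a 95% interval of -0.19 to 0.08 (limma adjusted p = 0.487, not passed), and it was 0.0091 when GOF sample 1 was left out. The upper end of the interval for Hapln1 lies below the lower end for its neighbour Vcan (0.28).

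Cd44 (ENSMUSG00000005087, minus strand of chromosome 2, 102811141 to 102901665) encodes a cell surface receptor for hyaluronan. It stood at 62.1, 55.9, 60.4 and 50.6 normalized reads in WT samples 1 to 4 and at 84.0, 95.1, 99.4 and 88.7 in GOF samples 1 to 4, with no overlap. Its log2 change was 0.67 ± 0.07 (SE, limma adjusted p = 9.07e-07). Its upstream window (chr2:102901666-102901915, minus strand, GRCm38.p6, RefSeq) is shown as the only window with ACGTG among the 8 members with a window, which 16.6% of all windows hold; the match begins 29 bases before the start.
Cd44: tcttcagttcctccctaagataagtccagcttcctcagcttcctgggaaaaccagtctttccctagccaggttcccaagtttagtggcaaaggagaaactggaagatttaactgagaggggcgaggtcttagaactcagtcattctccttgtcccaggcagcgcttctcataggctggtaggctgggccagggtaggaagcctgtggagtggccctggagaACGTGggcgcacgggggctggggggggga

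**Figure D3:**
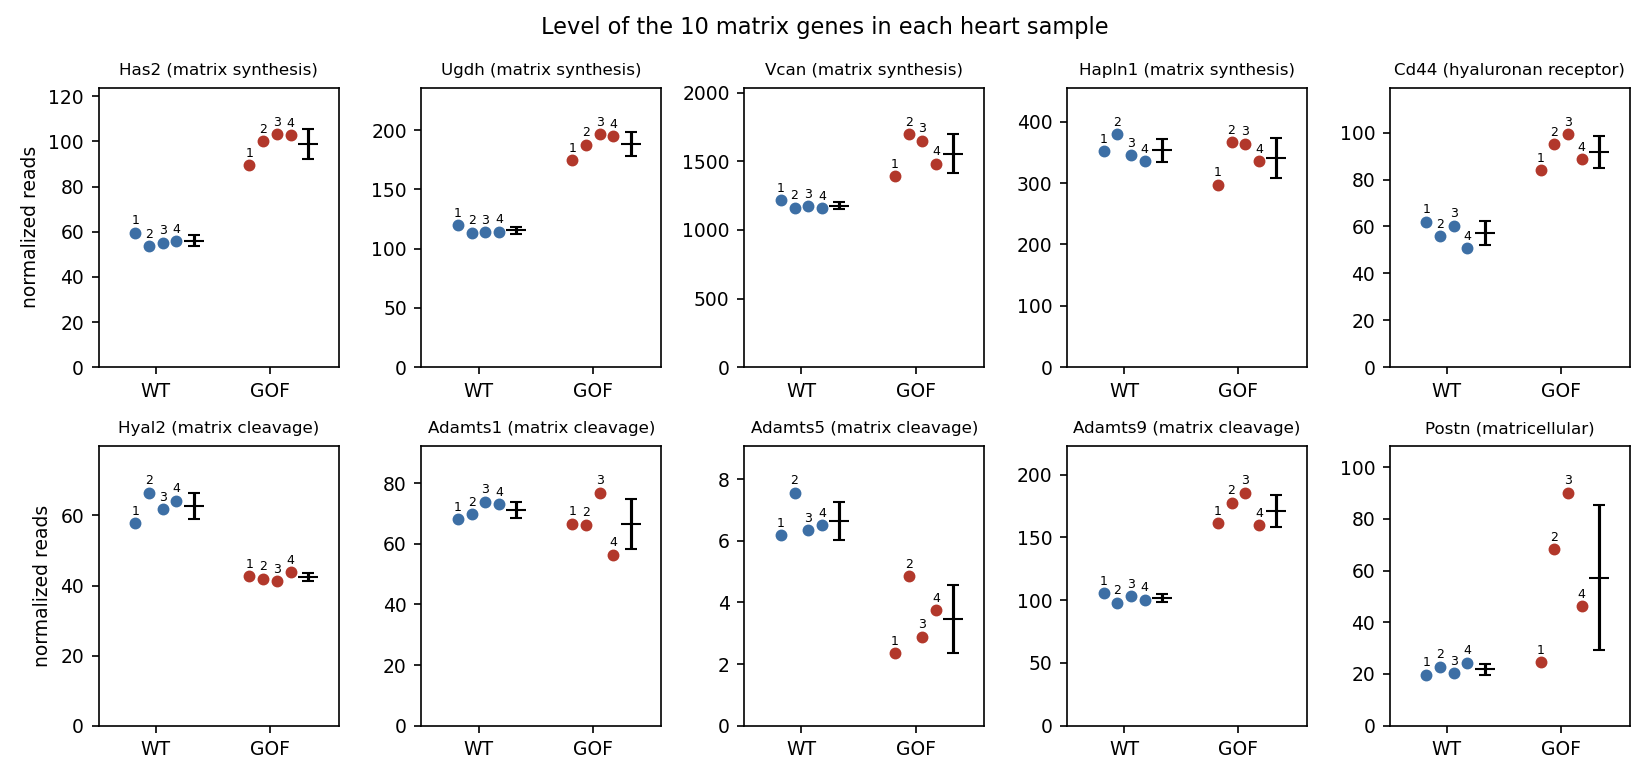
Normalized reads of each of the 10 genes in the 4 WT and the 4 GOF samples, with sample numbers beside the points and mean ± SD to the right of each group; every axis starts at 0. Groups overlap for Hapln1 and Adamts1, and the GOF samples of Postn spread from 24.7 to 90.2.

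On the side of clearance, Hyal2 (ENSMUSG00000010047, plus strand of chromosome 9, 107567945 to 107572779), a membrane-anchored hyaluronidase that cuts long hyaluronan chains, was the member with the lowest coefficient of variation in GOF (2.67%). It was at 57.9, 66.5, 61.8 and 64.2 normalized reads in WT samples 1 to 4 and at 42.7, 42.0, 41.2 and 43.8 in GOF samples 1 to 4. All GOF samples lay below all WT samples. The log2 change was -0.55 ± 0.05 (SE, limma adjusted p = 3.5e-07).

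The ADAMTS genes, whose products cut versican, went in different directions. Adamts9 (ENSMUSG00000030022, minus strand of chromosome 6, 92772699 to 92943492) was at 105, 97.9, 103 and 100.3 normalized reads in WT samples 1 to 4 and at 161, 178, 186 and 159.98 in GOF samples 1 to 4. Every GOF sample was higher than every WT sample, and the log2 change was 0.74 ± 0.05 (SE, limma adjusted p = 1.03e-08). Adamts9 shares 1381 exon bases with A730049H05Rik and 424 with Gm15737, both annotated on the opposite strand, and reads from these bases cannot be assigned with certainty. Adamts1 (ENSMUSG00000022893, minus strand of chromosome 16, 85793827 to 85803113) was at 68.2, 69.8, 73.9 and 73.04 normalized reads in WT samples 1 to 4 and at 66.7, 66.3, 76.9 and 56.4 in GOF samples 1 to 4. The groups overlapped, with the highest and the lowest of the 8 values both in GOF. On the log2 scale the change was -0.10, with a 95% interval of -0.26 to 0.06, and did not pass (limma adjusted p = 0.257). It was -0.17 and passed when GOF sample 3 was left out (limma adjusted p = 0.0295, over all alternatives 0.0295 to 0.72).

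Adamts5 (ENSMUSG00000022894, minus strand of chromosome 16, 85856173 to 85901828) lies 53059 bases from Adamts1, with no other protein-coding gene between them, and was by far the least abundant member, with 34 to 120 reads per sample. It was at 6.18, 7.56, 6.34 and 6.50 normalized reads in WT samples 1 to 4 and at 2.34, 4.86, 2.89 and 3.75 in GOF samples 1 to 4. All GOF samples were lower than all WT samples. Its change in log2 came to -0.81 ± 0.15 (SE, limma adjusted p = 0.000358), and -0.47 with a pseudocount of 5, which shrinks changes of low genes. Upstream windows of Adamts9 and Adamts1 are shown side by side, as the proteases with the higher levels, of which Adamts9 passed the threshold and Adamts1 did not. The Adamts9 window (chr6:92943535-92943784, minus strand, GRCm38.p6, RefSeq) holds GGCGCC, found in 9.59% of all windows, and GCGTG, found in 28.2%. The Adamts1 window (chr16:85803114-85803363, minus strand) holds GCGTG.
Adamts9: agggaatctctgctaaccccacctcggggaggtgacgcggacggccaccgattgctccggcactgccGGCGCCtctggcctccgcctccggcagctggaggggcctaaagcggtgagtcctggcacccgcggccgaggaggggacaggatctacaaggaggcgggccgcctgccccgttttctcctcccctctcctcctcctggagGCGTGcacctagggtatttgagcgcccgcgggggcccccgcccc
Adamts1: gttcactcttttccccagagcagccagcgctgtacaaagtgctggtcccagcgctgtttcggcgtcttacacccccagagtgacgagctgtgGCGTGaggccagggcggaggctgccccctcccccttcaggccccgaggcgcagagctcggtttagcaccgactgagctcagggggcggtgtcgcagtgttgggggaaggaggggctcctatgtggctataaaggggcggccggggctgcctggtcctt

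Both windows are rich in G and C, at 71.2% for Adamts9 and 65.6% for Adamts1 against a median of 52.4% over all windows, and short GC-rich motifs are met more often in such sequence. Windows were found for 8 of the 10 members; none was matched for Has2 or Adamts5. The window of Ugdh holds GCGTG at 3 places, while those of Hyal2, Hapln1 and Postn hold none of the 4 motifs. Not all of these lie upstream of the gene as GENCODE M21 annotates it, since 250 of the 250 bases of the Hapln1 window, 180 of those of Hyal2 and 107 of those of Ugdh are exon of the gene itself; the 4 windows printed here hold no annotated exon base. A match is a description of the letters and does not show binding.

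Postn (ENSMUSG00000027750, plus strand of chromosome 3, 54361109 to 54391037) encodes periostin, a secreted protein of the maturing cushions and valves that binds collagen and integrins. It was at 19.7, 22.9, 20.2 and 24.3 normalized reads in WT samples 1 to 4 and at 24.7, 68.3, 90.2 and 46.1 in GOF samples 1 to 4. GOF sample 1 was barely above the highest WT sample, whereas the other GOF samples stood well above the WT range. The log2 change was 1.21 ± 0.40 (SE, limma adjusted p = 0.0395). The call was lost when any sample other than GOF sample 1 was left out (limma adjusted p 0.0699 to 0.0949), and without GOF sample 1 the log2 change was 1.56 (limma adjusted p = 0.00265). GOF sample 1 was the lowest GOF sample for 7 of the 10 genes, and GOF sample 3 the highest for 6. The sum of 5 red cell markers ran the other way for these samples, at 11596 normalized reads in GOF sample 1 and 2065 in GOF sample 3; its part in the spread was not tested.

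The balance of making and cutting was set out within each sample as the difference of log2(normalized reads + 1) between a synthesis gene and the gene whose product cuts the same molecule. Has2 minus Hyal2 was 0.04, -0.30, -0.16 and -0.20 in WT samples 1 to 4 and 1.05, 1.23, 1.31 and 1.21 in GOF samples 1 to 4. The groups were far apart, and the mean rose by 1.36, which is 2.56-fold in the ratio. Hyal2 was the only hyaluronan-cutting gene paired with Has2. Cemip, which was not paired, rose by more than Has2 (log2 change 2.39 against 0.81). Cemip2, also not paired, changed by -0.53. The rise thus holds for the pair with Hyal2 and not for every gene that cuts hyaluronan. For versican the direction depended on the protease as well. Vcan minus Adamts1 went from 4.03 ± 0.08 in WT to 4.53 ± 0.17 in GOF and Vcan minus Adamts5 from 7.27 ± 0.13 to 8.48 ± 0.28 (± SD of 4 samples each). Vcan minus Adamts9 went the other way, from 3.52 ± 0.02 to 3.18 ± 0.06 (± SD of 4 samples each). None of these 4 differences overlapped between the groups. For Has2 minus Hyal2 and Vcan minus Adamts5 this follows from the single genes, which did not overlap and moved in opposite directions. They are given as values, with no test, since the genes were chosen with earlier results known.

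**Figure D4:**
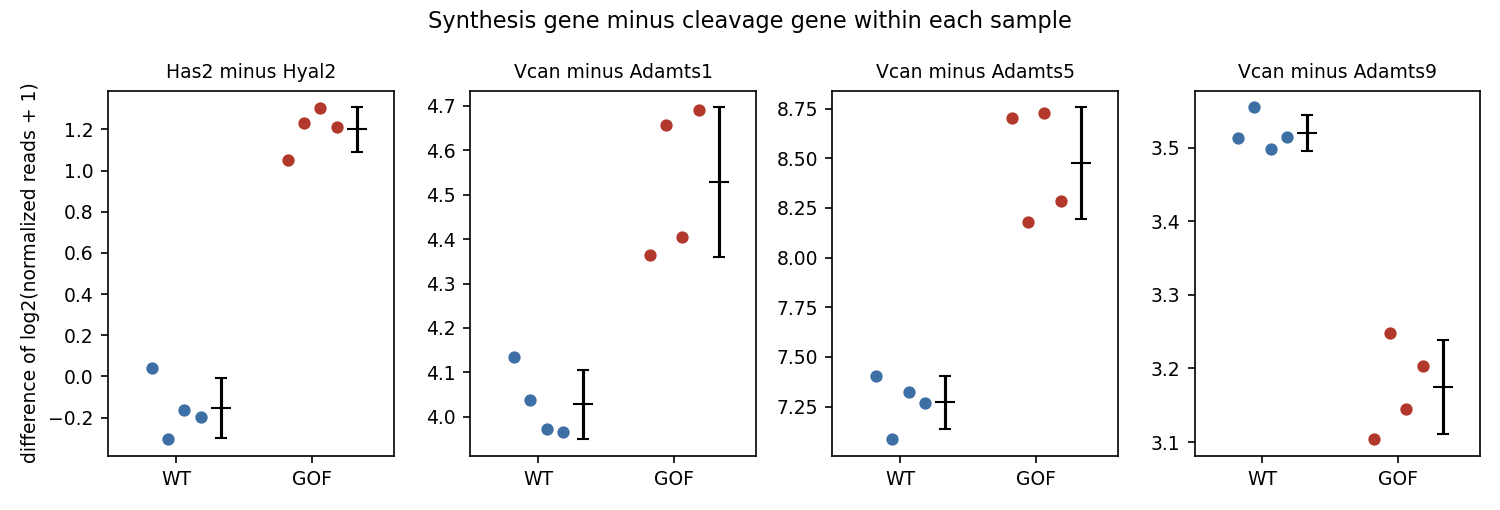
Difference of log2(normalized reads + 1) between a synthesis gene and a cleavage gene within each WT and GOF sample, with mean ± SD; axes do not start at 0 because the differences are on a log scale. The GOF samples are higher for Has2 minus Hyal2, Vcan minus Adamts1 and Vcan minus Adamts5, and lower for Vcan minus Adamts9.

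Other genes of the same pathway were taken from 9 lists, drawn from textbook knowledge with earlier results of these data known. They held 81 genes, of which 70 are in the table. Of these, 25 rose and 11 fell, and the median log2 change was 0.04. The share that passed, 51.4%, was below the 56.3% of all genes. In the list of hyaluronan precursors and synthesis 1 of 6 rose and 5 did not pass. The gene that rose was Gfpt2, an isoform of the enzyme that commits sugar to the UDP-N-acetylglucosamine route, at 24.5 ± 1.42 normalized reads in WT and 42.9 ± 3.95 in GOF (± SD of 4 samples each, log2 change 0.78, limma adjusted p = 1.91e-07). The isoform gene Gfpt1 did not pass, with a log2 change of -0.06 (95% interval -0.19 to 0.08).

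Genes of hyaluronan breakdown moved in both directions, with 2 of 5 higher and 2 lower (median -0.11). Cemip, which encodes a hyaluronan-depolymerizing protein of the cell periphery, was at 5.71 ± 0.766 normalized reads in WT and 35.4 ± 12.6 in GOF (± SD of 4 samples each, log2 change 2.39, limma adjusted p = 3.21e-05). Its relative Cemip2, a transmembrane protein described as a cell surface hyaluronidase in the mouse, went from 282 ± 5.51 to 196 ± 23.4 (log2 change -0.53, limma adjusted p = 2.38e-05). Hexa, a lysosomal enzyme subunit that takes part in the breakdown of hyaluronan fragments, rose by 0.68. Gusb, the lysosomal beta-glucuronidase, changed by -0.26 (limma adjusted p = 0.00297). With Hyal2 added, the transcripts of both cell surface hyaluronidases fell, while those of Cemip and Hexa rose.

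Among 5 genes for hyaluronan receptors and binding, 1 rose and 1 fell, both at low levels. Stab2, a scavenger receptor that takes up hyaluronan, was at 0.935 ± 0.184 normalized reads in WT and 2.43 ± 0.320 in GOF, and Lyve1, a receptor of lymphatic and some other endothelium, at 7.02 ± 1.17 in WT and 2.90 ± 1.38 in GOF (± SD of 4 samples each). Their log2 changes were 0.82 and -1.10 (limma adjusted p = 0.000143 and 0.00311), and 0.32 and -0.62 with a pseudocount of 5. Of 3 genes for lecticans and link proteins other than Vcan and Hapln1, 1 rose, Acan, which encodes aggrecan, from 1.13 ± 0.210 to 2.89 ± 0.670 normalized reads (log2 change 0.86, limma adjusted p = 0.000202), or 0.36 with a pseudocount of 5.

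The sugar side chains of versican are built by a long series of enzymes, and 7 of 24 of their genes rose while 5 fell (median -0.01). These shares, 29.2% higher and 20.8% lower, were near or under the 28.2% in each direction over all genes. Papss1, which makes the sulfate donor PAPS, went up from 48.3 ± 3.10 to 75.1 ± 2.13 normalized reads (± SD of 4 samples each, log2 change 0.63, limma adjusted p = 7.43e-08). Chsy1, a chondroitin polymerase, rose by 0.40 and Chst15, which adds a second sulfate to chondroitin sulfate, by 1.26. Fam20b, the kinase that phosphorylates the linker xylose, changed by -0.39 (limma adjusted p = 1.28e-06). The others that passed were picked out after their values were seen. The sulfotransferase genes Chst3 (1.42) and Chst11 (0.46), the xylosyltransferase gene Xylt2 (0.46) and the epimerase-like gene Dsel (0.35) rose, and Chpf (-0.19), Chst7 (-0.52), Chst12 (-0.22) and Ust (-0.32) fell. With a pseudocount of 5 the log2 changes of the low genes Chst3, Chst7 and Ust were 0.72, -0.22 and -0.15. The call of Ust was lost when any sample other than GOF sample 3 or WT sample 4 was left out (limma adjusted p 0.0559 to 0.105).

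Of the other ADAMTS genes linked to versican cleavage, 1 of 4 rose, Adamts15, from 20.01 ± 0.867 to 26.6 ± 4.69 normalized reads (± SD of 4 samples each, log2 change 0.38, limma adjusted p = 0.00379). Adamts4, Adamts8 and Adamts20 stood at 3.0 normalized reads or less in each sample and did not pass. Timp3, a matrix-bound inhibitor of ADAMTS proteases and metalloproteinases, went up from 70.1 ± 6.55 to 113 ± 2.56 (± SD of 4 samples each, log2 change 0.69, limma adjusted p = 1.2e-07). Timp1 changed by -0.33 (limma adjusted p = 0.0202; -0.22 with a pseudocount of 5), which no longer passed when sample 2 or 3 of either group was left out (limma adjusted p 0.0555 to 0.0639). Fbln1, whose product fibulin-1 is a cofactor of ADAMTS1 for versican cleavage, did not pass (log2 change -0.07, 95% interval -0.17 to 0.03). Among 4 metalloproteinase genes, Mmp11 (0.62) and Mmp2 (0.36) rose and Mmp14 (-0.30), the membrane protease that activates the Mmp2 product, fell.

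In the list of other cushion matrix proteins 9 of 15 genes rose and 1 fell (60.0% higher, median 0.73), where 28.2% of all genes were higher and the median of all genes was 0.00. The list was chosen with earlier results of these data known, so its difference from all genes is a description and was not tested. The matricellular genes Ccn1 and Ccn2 rose by 1.48 and 2.14 and Thbs1, which encodes thrombospondin 1, by 1.81. Thbs1 was at 78.3 ± 5.59 normalized reads in WT and 279 ± 41.4 in GOF (± SD of 4 samples each, limma adjusted p = 8.59e-07). Bgn, a small leucine-rich proteoglycan, rose by 1.11. Picked out after their values were seen, Tgfbi (1.09), a relative of Postn, Fbln2 (0.85), Dcn (0.73), Fbn2 (0.47) and Sparc (0.38) rose. Fbn1 changed by -0.39, with its call lost without GOF sample 4 or any WT sample (limma adjusted p 0.0562 to 0.0737). The transcripts of fibronectin, Fn1, had a log2 change of 0.26 that did not pass (limma adjusted p = 0.104).

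**Figure D5:**
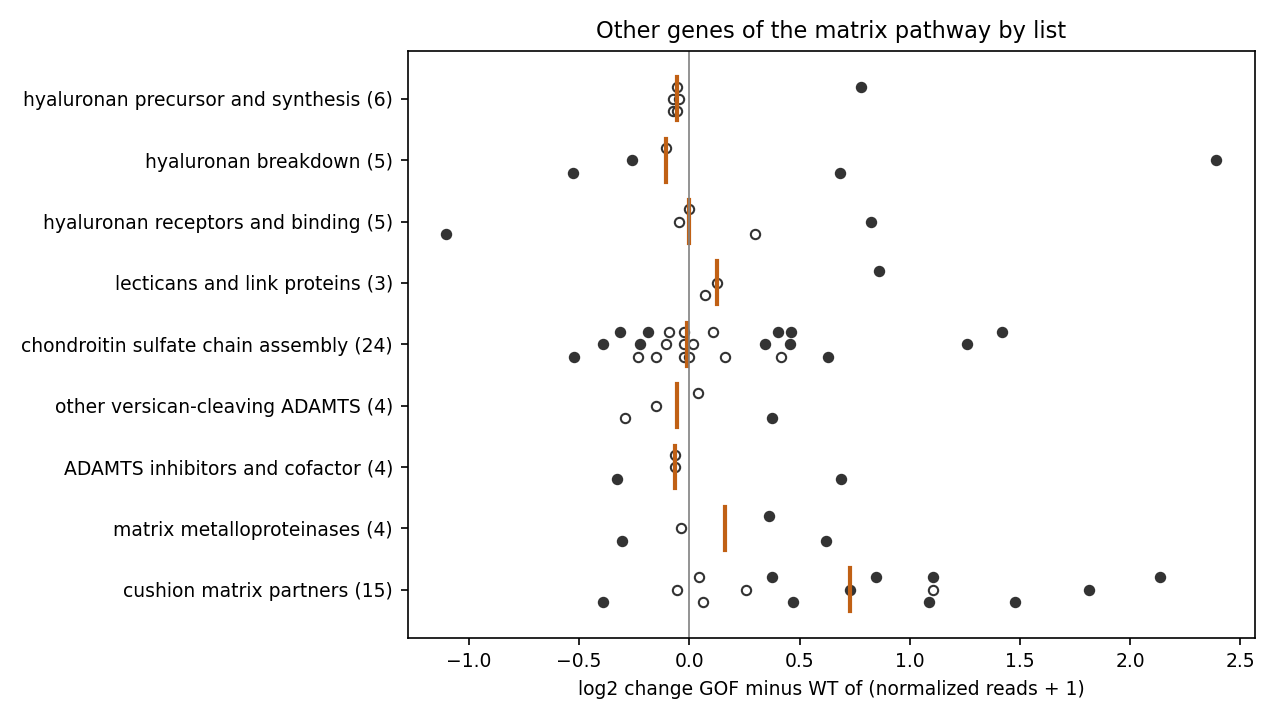
Log2 change from WT to GOF of 70 other genes of the matrix pathway in 9 lists, with the number of genes in brackets; filled points passed the threshold, open points did not, and the orange bar is the list median. The list of cushion matrix partners has the highest median, and the breakdown list spans from -0.53 to 2.39.

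Markers of cells that could carry these transcripts moved as well. The 5 cushion mesenchyme markers summed to between 164 and 189 normalized reads in GOF and between 119.8 and 147 in WT, with Sox9, Twist1 and Pdgfra called higher. Prrx1 (log2 change 0.20) and Msx1 (-0.25) did not pass and overlapped between the groups. The call of Pdgfra was lost at equal totals without mitochondrial genes (limma adjusted p = 0.0906) and when any sample but GOF sample 4 and WT sample 1 was dropped (limma adjusted p 0.0528 to 0.104), and Msx1 was called lower without GOF sample 1 (log2 change -0.39, limma adjusted p = 0.0282). The 5 endocardial markers summed to between 416 and 528 in GOF and between 558 and 606 in WT, with 1 higher and 3 lower. The 4 epicardial markers summed to between 187 and 283 in GOF and between 140.2 and 171 in WT. Wt1, Tcf21 and Upk3b were called higher, though the groups of Tcf21 overlapped. Tbx18 overlapped too and did not pass (log2 change 0.16, limma adjusted p = 0.205). Upk3b was highest in GOF sample 2, at 102 normalized reads. Only 2 of the 4 were called when any sample but GOF sample 1 was left out, and at equal totals without mitochondrial genes. All 4 were called with the replicate number as a block. In bulk hearts, a change in the number of cells of a type and a change of RNA per cell cannot be told apart. All 7 hypoxia markers rose, with a sum of between 8966 and 9893 normalized reads in GOF and between 4236 and 4565 in WT, and all 4 immediate early genes rose, with sums of between 101 and 120.3 in GOF and between 30.1 and 32.8 in WT. The part of these differences in the matrix gene changes was not tested. The white blood cell markers did not move together. Csf1r rose from 2.14 ± 0.422 normalized reads in WT to 4.52 ± 0.616 in GOF, while Lyz2 fell from 6.80 ± 0.501 to 2.94 ± 0.696 and Mrc1 from 3.28 ± 0.337 to 0.889 ± 0.429 (± SD of 4 samples each), and their sum was between 7.74 and 8.79 in GOF and between 11.7 and 13.2 in WT. The 3 platelet markers summed to between 27.3 and 153 in GOF, highest in GOF sample 1, and between 21.5 and 29.2 in WT, and 2 neural crest markers to between 49.4 and 57.9 in GOF and between 74.7 and 86.1 in WT. The 2 neural crest markers did not move together. Ednrb fell (log2 change -0.83, limma adjusted p = 7.5e-06), while Erbb3 (0.26) overlapped between the groups and did not pass.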

How the data were processed

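Hearts of E9.5 embryos were sequenced in 4 GOF and 4 WT samples, grouped and numbered by the titles. The authors deposited normalized counts, a signal per gene for 13637 Ensembl genes. How they were normalized, with which annotation and with what filter is not given in the sources used here. Per the submitters' processing notes, the build was GRCm38 and the tools, listed without role or order, were RSEM 1.2.3, cutadapt 1.6, CASAVA 1.8.2 and FastQC. In each column, 100% of the values came within 0.01 of whole reads once multiplied by a scale of the library and reduced by 0.5, which gives the implied reads. Because of the added 0.5 the values are not multiples of a read, and no count model was run. Intervals are for the mean log2 change and take in only the spread between samples within the groups.

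GENCODE M21 (GRCm38) gave names, positions and merged exon lengths for 13560 of the 13637 identifiers. The log2 values, with a pseudocount of 1, went into limma 3.58.1 under R 4.3.3 (trend, robust prior, no covariate, two-sided, Benjamini-Hochberg over all genes). The test was checked on simulated data with far fewer changed genes than passed here and the same dispersion in both groups. That check does not cover a broad difference or unequal spread. A minimum of 1 normalized read in at least 4 samples removed no gene. Fold changes on this scale understate changes of low genes. Named genes were the 10 members, Bmp2 and, from each pathway list, up to 4 genes with the smallest p past the threshold; others are said to be chosen after their values were seen. A gene of the breakdown list is not reported here. The members and lists were chosen with earlier results of these data known. Alternatives were pseudocounts of 0.5 and 5, a minimum of 5, equal column totals without mitochondrially encoded genes, quantile normalization, limma without trend and robust prior, the replicate number as a block, and each sample left out. Promoter sequences are RefSeq's, build GRCm38.p6.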

Additional observations from a re-analysis of the deposited data

Results flagged for a closer look

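With 102 groups of 4 samples examined, 4 had a sample far from the other 3, and chance gives about 1 in 20. Ugdh was at 119.8 normalized reads in WT sample 1, against 113.6 to 114.3 in the other WT samples. Chsy1 was at 137 in GOF sample 1, against 145.5 to 146.0, and at 99.3 in WT sample 4, against 111 to 112 in the other WT samples. Chpf was at 42.4 in WT sample 1, against 45.1 to 45.6.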

How the results depend on the processing

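The directions and calls of Bmp2, Has2, Ugdh, Vcan, Cd44, Hyal2, Adamts5 and Adamts9 were kept under all 15 alternatives. Adamts5 met the minimum of 5 only through its WT samples, so that alternative says nothing more about its call. Log2 changes ranged from 0.74 to 0.85 for Has2, 0.64 to 0.74 for Ugdh, 0.33 to 0.45 for Vcan, 0.61 to 0.71 for Cd44, -0.61 to -0.51 for Hyal2, -0.95 to -0.47 for Adamts5 and 0.68 to 0.77 for Adamts9. Hapln1, never called, had log2 changes between -0.0911 and 0.0091 when a replicate was left out, the highest without GOF replicate 1, and -0.12 at equal totals without mitochondrial genes. Vcan minus Adamts5 was higher in GOF by 0.865 with a pseudocount of 5, against 1.204 with a pseudocount of 1; the larger pseudocount shrinks low values by construction. At equal totals without mitochondrial genes 40.2% of called genes were higher, against 49.99%, and the median of all genes was -0.06. With the replicate number as a block the counts were 3678 higher and 3677 lower over all genes, and the call of Postn was lost (limma adjusted p = 0.0744). Same-numbered samples did not deviate together (correlations -0.137 to 0.00674), so the number was not taken as a pairing. A minimum of 5 normalized reads left out 14 of the 70 pathway genes, with 167 to 489 reads over the 8 samples each, of which Stab2, Acan, Chst3, Chst7 and Ust had been called; 6 chondroitin sulfate genes were then higher and 3 lower. Depth limits these genes, and Lyve1 and Adamts5 had 582 and 600 reads.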
